A study of Mus musculus with 7 samples.

Results

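Early T-cell receptor response genes are the genes a T cell transcribes soon after its antigen receptor is engaged, and 10 of them were followed here: *Egr1*, *Egr2*, *Egr3*, *Nr4a1*, *Nr4a2*, *Nr4a3*, *Nfatc1*, *Cd69*, *Dusp2*, and *Rcan1*. They were picked by gene symbol, as known response genes and without a threshold on their values, out of the 55367 genes in the count table. Earlier results of these data were known when the 10 genes were picked. All 10 passed the minimum on counts (on average 5 or more per library), as did 12623 genes in all. The question was how their mRNA levels in CD8+ T cells differed between leukemic and healthy vesicles.

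Small extracellular vesicles (sEV) are membrane particles that cells release and take up. LME-sEVs were isolated from leukemic Eμ-TCL1 mouse spleens, a model of chronic lymphocytic leukemia in which a *TCL1* transgene is driven in B cells, and HCME-sEVs came from the spleens of healthy mice. CD8+ T cells sorted by flow cytometry from spleens of the strain labelled Foxp3 YFP/cre, which carries a reporter and Cre recombinase at the *Foxp3* locus, received LME-sEVs (3 libraries) or HCME-sEVs (4 libraries) for 48 h, at 100 μg/mL according to the labels. A figure legend of the study gives the sizes of the groups the other way round; the labels and the names of the count columns, which give the same sizes, were followed. On the dose, the methods instead describe the amount found in each kind of spleen. The study reports more LME-sEV than HCME-sEV protein per gram of spleen. If those amounts were used, dose and kind of vesicle differed together and cannot be told apart. For CD8+ T cells in general the methods describe wells coated with anti-CD3 antibody, with CD28 antibody and IL2 in the medium. If this held here, both groups had continuous receptor stimulation. No library of resting cells or of cells without sEVs was analysed. The methods describe young adult mice in general, and the labels give no age. The labels do not say whether the libraries of a group came from separate mice or cultures, so the p-values measure the spread between these libraries, which may be technical.

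Engagement of the T-cell receptor activates phospholipase C and opens several routes to the nucleus. Calcium entering the cell activates the phosphatase calcineurin, which releases NFAT factors into the nucleus, whereas diacylglycerol recruits Ras and the kinase ERK, which act on serum response factor (SRF) and its partners at CArG boxes. The zinc finger factors EGR1, EGR2, and EGR3 and the orphan nuclear receptors NR4A1, NR4A2, and NR4A3 are induced within the first hours, *Cd69* encodes a surface lectin that retains activated cells in tissue, and *Nfatc1*, *Rcan1*, and *Dusp2* belong to the feedback of these routes. EGR2, EGR3, and the NR4A receptors are also known for restraining T cells under prolonged stimulation.

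Some starts of these genes hold letters known as elements of these routes, and 4 windows are printed here for that: an SRF element in *Egr2*, a run of cyclic AMP response half-sites in *Nr4a3*, and a pair of *Rcan1* starts of which only the internal window holds the NFAT core. The sequences are from RefSeq on GRCm38.p6, 250 bases before to 50 bases from the annotated start, written 5′ to 3′ on the strand of the gene. Of the 10 genes, 6 matched the RefSeq table, with 11 windows, and *Egr1*, *Egr3*, *Nfatc1*, and *Cd69* are named only. Capitals mark the CArG box in *Egr2* (chr10:67537619-67537918, + strand), TGACGT in *Nr4a3* (chr4:48045055-48045354, + strand), and GGAAA or its reverse complement TTTCC in *Rcan1* (distal chr16:92466120-92466419 and internal chr16:92400029-92400328, both - strand).
Egr2: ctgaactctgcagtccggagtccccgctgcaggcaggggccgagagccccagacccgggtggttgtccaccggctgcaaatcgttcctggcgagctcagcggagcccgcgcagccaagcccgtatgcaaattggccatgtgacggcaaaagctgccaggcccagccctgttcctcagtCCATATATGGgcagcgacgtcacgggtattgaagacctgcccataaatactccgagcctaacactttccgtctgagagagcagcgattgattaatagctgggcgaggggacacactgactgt
Nr4a3: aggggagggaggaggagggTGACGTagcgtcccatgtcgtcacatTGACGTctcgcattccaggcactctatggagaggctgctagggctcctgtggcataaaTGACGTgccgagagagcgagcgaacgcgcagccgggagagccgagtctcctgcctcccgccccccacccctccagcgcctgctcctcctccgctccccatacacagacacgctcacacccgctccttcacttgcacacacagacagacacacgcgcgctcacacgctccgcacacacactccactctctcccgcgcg
Rcan1 distal: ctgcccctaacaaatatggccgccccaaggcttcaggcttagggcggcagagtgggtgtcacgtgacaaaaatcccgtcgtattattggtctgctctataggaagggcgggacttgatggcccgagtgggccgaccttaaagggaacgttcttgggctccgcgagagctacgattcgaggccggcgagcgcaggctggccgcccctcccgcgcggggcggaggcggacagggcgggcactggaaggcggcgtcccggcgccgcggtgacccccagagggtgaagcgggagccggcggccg
Rcan1 internal: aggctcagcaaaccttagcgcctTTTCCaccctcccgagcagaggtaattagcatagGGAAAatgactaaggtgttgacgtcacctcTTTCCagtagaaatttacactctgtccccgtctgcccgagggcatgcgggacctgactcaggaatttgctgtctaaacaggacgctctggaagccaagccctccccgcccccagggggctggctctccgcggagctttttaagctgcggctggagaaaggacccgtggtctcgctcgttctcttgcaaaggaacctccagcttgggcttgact

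Counted from the start, the CArG box of *Egr2* began at position -72. Among 32851 RefSeq windows of the same length, 1.63% held a CArG box on either strand. The 3 TGACGT matches of *Nr4a3* began at -231, -205, and -147, and 7.51% of the windows held this hexamer on either strand. It was not particular to *Nr4a3*. The *Egr2* window held it at -56 and the internal *Rcan1* window at -175 and -173, left in lower case. Those *Rcan1* matches lie on opposite strands and overlap, as the palindrome tgacgtca. GENCODE lists no coding transcript start within 100 bases of this *Nr4a3* start, although its *Nr4a3* gene begins at 48045153, inside the printed window. The windows of *Dusp2* and *Nr4a1* held GC boxes but no match to the other 3 motifs. The internal *Rcan1* window held GGAAA or TTTCC at -227, -193, and -163 and the distal window held none, but these 5 letters are common and were found in 61.3% of the windows. The printed *Egr2* window held TTTCC at -8, left in lower case, and the *Nr4a2* window held it at -230. None of the marked matches overlapped a match to another of the 4 motifs searched, the last being the GC box GGGCGG (35.7% of windows). A match describes letters and not a bound site.

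Of the 10 genes, 3 fell with LME-sEVs (*Cd69*, *Egr3*, and *Egr1*), 0 rose, and 7 did not pass the test (edgeR quasi-likelihood test, FDR under 0.05 over all 12623 genes). The whole table gives the background: 8.96% of tested genes passed in either direction, 3.75% being higher with LME-sEVs and 5.21% lower. None of the 10 was a DEG, which also needs a log2 fold change beyond 1, and 1.28% of tested genes were. The same 3 genes were those with an unadjusted p under 0.05 in edgeR, and no DEG was found among the 10 with DESeq2 or limma-voom either. The median log2 fold change of the 10 genes was -0.12 and that of all tested genes 0.0096. Levels are in CPM, the UMI counts of a gene scaled by TMM to the size of its library, and every difference is LME-sEVs over HCME-sEVs on the log2 scale.

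**Figure D1:**
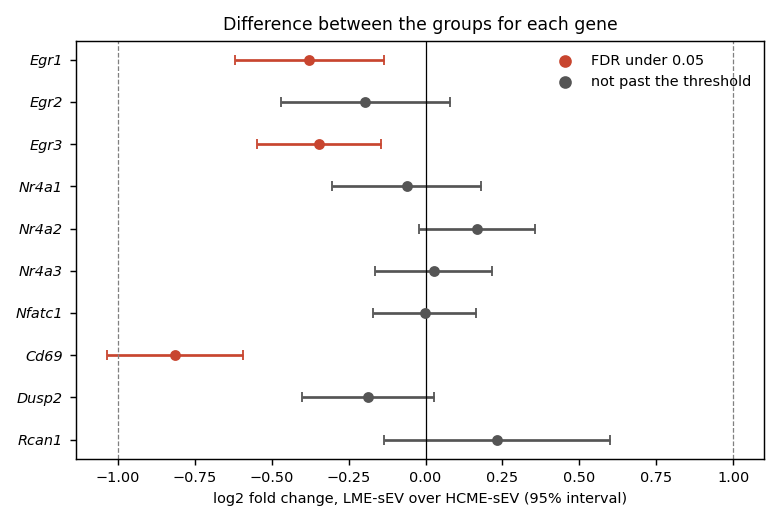
Log2 fold change of each gene, LME-sEVs over HCME-sEVs, with its 95% interval from edgeR; red points passed an FDR under 0.05 and dashed lines mark the log2 fold change of 1 in either direction that a DEG needs. *Cd69*, *Egr1*, and *Egr3* lie below 0 with intervals that do not reach it, and the estimates of all 10 genes lie inside the dashed lines.

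*Cd69*, at chromosome 6, 129267325 to 129275436 on the minus strand (GRCm38, GENCODE vM21), encodes an early activation antigen. Its level was 72.3, 61.9, 68.9, and 57.8 CPM in the 4 HCME-sEV libraries and 35.7, 36.3, and 38.8 CPM in the 3 LME-sEV libraries. Every LME-sEV library lay below every HCME-sEV library. Such separation was found for 3 of the 10 genes (*Cd69*, *Egr2*, and *Egr3*), each lower with LME-sEVs, and for 20.3% of all tested genes, 10.8% in this direction and 9.49% in the other. The mean was 65.2 ± 6.57 CPM (SD, n = 4) and 36.9 ± 1.68 CPM (SD, n = 3), so that it fell by 43.2% in the fit. The log2 fold change was -0.82 (SE 0.11, 95% interval -1.04 to -0.59, FDR = 1.31e-04), and an exact permutation of the group labels over the 7 libraries (35 assignments) gave p = 0.0286, the smallest it can give (two-sided, not adjusted for the 10 genes). The call held in all 17 alternative analyses, with log2 fold changes between -0.87 and -0.76. Lower *Cd69* in bulk RNA can stem from fewer cells that express it or from less of it per cell, which cannot be told apart here.

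Of the zinc finger factors, *Egr1* and *Egr3* came next in size after *Cd69*. *Egr1* (chromosome 18, 34859823 to 34864984, plus strand), the immediate early gene of the ERK and SRF route, was at 42.3, 54.8, 50.5, and 51.3 CPM with HCME-sEVs and at 32.7, 42.3, and 39.0 CPM with LME-sEVs. The groups touched, since HCME-sEV library 1 and LME-sEV library 2 were level. *Egr1* fell from 49.7 ± 5.31 (SD, n = 4) to 38.0 ± 4.89 CPM (SD, n = 3), a log2 fold change of -0.38 (SE 0.12, 95% interval -0.62 to -0.14, FDR = 0.0460; exact permutation p = 0.0857). This FDR lies close to the threshold. Of the 7 analyses that each left out a library, only the one without HCME-sEV library 1 kept the call, at an FDR of 0.0150, and without the others in turn the FDR lay between 0.0609 and 0.205. DESeq2 gave an FDR of 0.0734 and limma-voom 0.0517.

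*Egr3* (chromosome 14, 70077203 to 70082614, plus strand), an NFAT-dependent member of the family, was at 63.9, 72.0, 67.5, and 78.4 CPM with HCME-sEVs. With LME-sEVs it was at 55.0, 56.2, and 55.1 CPM, below every HCME-sEV library and close to each other. It fell from 70.5 ± 6.27 (SD, n = 4) to 55.4 ± 0.692 CPM (SD, n = 3), a log2 fold change of -0.35 (SE 0.096, 95% interval -0.55 to -0.15, FDR = 0.0277; exact permutation p = 0.0571). The call was lost without HCME-sEV library 2 (FDR = 0.0736) or 4 (0.0836) and without LME-sEV library 1 (0.0874), 2 (0.0927), or 3 (0.109), while the log2 fold change stayed between -0.39 and -0.29. Scaling by library size only also ended it (FDR = 0.0640).

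*Egr2* (chromosome 10, 67535475 to 67542188, plus strand), whose CArG box is printed above, was the least abundant of the family. Its level was 20.9, 21.2, 24.2, and 20.9 CPM with HCME-sEVs and 18.8, 19.0, and 19.1 CPM with LME-sEVs. The groups did not overlap, and HCME-sEV library 3 stood above the other libraries of its group. The means were 21.8 ± 1.61 (SD, n = 4) and 19.0 ± 0.187 CPM (SD, n = 3). The log2 fold change of -0.20 (SE 0.13, 95% interval -0.47 to 0.078) did not pass the test in edgeR (FDR = 0.408), whereas the exact permutation test, which sets only the order and size of these 7 values against each other, gave its smallest p of 0.0286, unadjusted. With 70 to 99 counts per library, the interval included falls as large as that of *Egr1*.

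**Figure D2:**
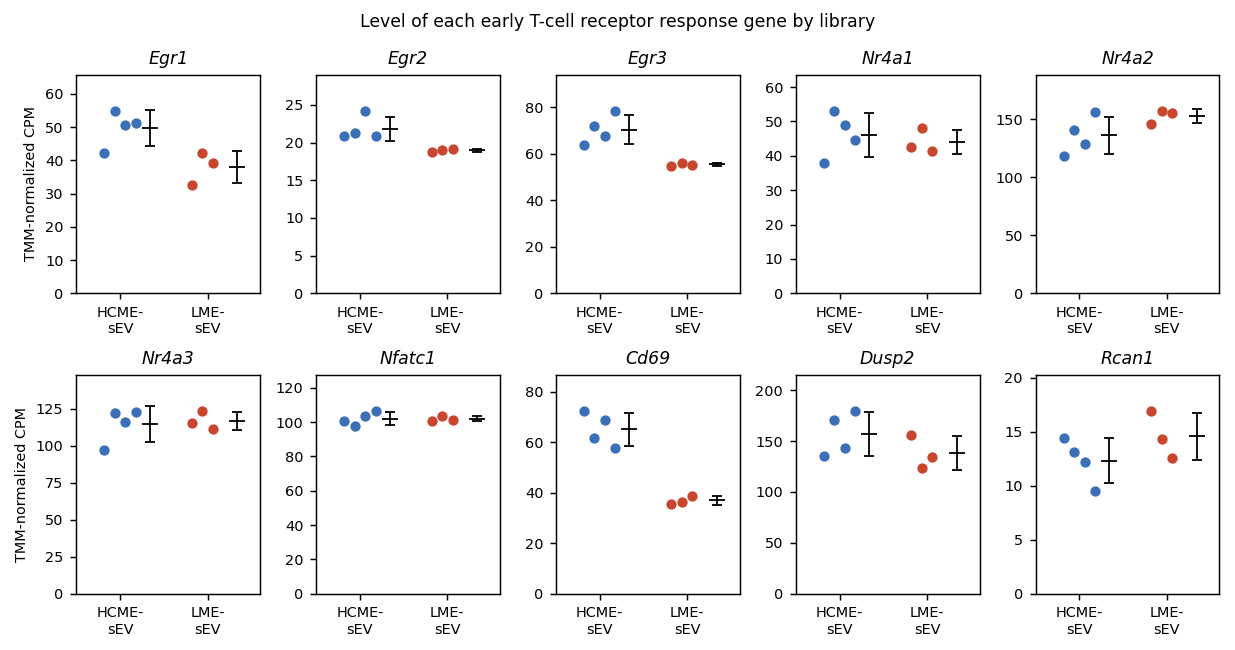
TMM-normalized CPM of each gene in every library (points, left to right in the order of the library numbers), with the mean and SD of the group beside them; each axis starts at 0. The 3 LME-sEV points of *Cd69*, *Egr2*, and *Egr3* lie below all HCME-sEV points, and those of the other 7 genes overlap them.

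The NR4A receptors, whose activity is thought to follow their abundance, showed no member past the test. *Nr4a1* (chromosome 15, 101254269 to 101274795, plus strand) was at 37.9, 53.0, 48.9, and 44.5 CPM with HCME-sEVs and at 42.6, 48.2, and 41.5 CPM with LME-sEVs. The LME-sEV libraries lay within the HCME-sEV range, and the log2 fold change was -0.062 (SE 0.12, 95% interval -0.30 to 0.18, FDR = 0.814). Its sign turned to 0.012 without HCME-sEV library 2.

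*Nr4a2* (chromosome 2, 57106830 to 57124003, minus strand) was the most abundant receptor, at 119, 141, 129, and 156 CPM with HCME-sEVs and 146, 157, and 156 CPM with LME-sEVs. The groups overlapped through HCME-sEV library 4 alone. The means were 136 ± 16.1 (SD, n = 4) and 153 ± 6.13 CPM (SD, n = 3), and the log2 fold change of 0.17 (SE 0.091, 95% interval -0.022 to 0.36) did not pass (FDR = 0.288), nor did it in any of the 17 alternatives (FDR 0.0539 to 0.537). *Nr4a3* (chromosome 4, 48045153 to 48086447, plus strand), with the 3 half-sites shown above, was at 97.2, 122, 116, and 123 CPM with HCME-sEVs and 116, 123, and 112 CPM with LME-sEVs. Only HCME-sEV library 1 stood low. Its log2 fold change was 0.027 (SE 0.091, 95% interval -0.16 to 0.22, FDR = 0.903), and it turned to -0.046 without that library and to -0.015 without LME-sEV library 2.

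Set side by side in each library, the families gave sums in CPM, which depend on the scaling, and a ratio, which does not. The summed EGR level was 127, 148, 142, and 151 CPM with HCME-sEVs and 106, 118, and 113 CPM with LME-sEVs. The summed NR4A level was 254, 316, 294, and 324 CPM against 304, 329, and 309 CPM. NR4A mRNA per EGR mRNA was therefore 2.0, 2.14, 2.07, and 2.15 with HCME-sEVs and 2.86, 2.80, and 2.73 with LME-sEVs. The means of this ratio were 2.09 ± 0.0703 (SD, n = 4) and 2.79 ± 0.0657 (SD, n = 3), without overlap; it was computed after the single genes and is given as a description, with no test. Within the families the makeup moved less. *Egr3* made up 49.6% ± 2.0 (SD, n = 4) and 49.4% ± 2.01 (SD, n = 3) of EGR mRNA, and *Nr4a2* 45.9% ± 1.97 and 48.7% ± 1.45 of NR4A mRNA.

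**Figure D3:**
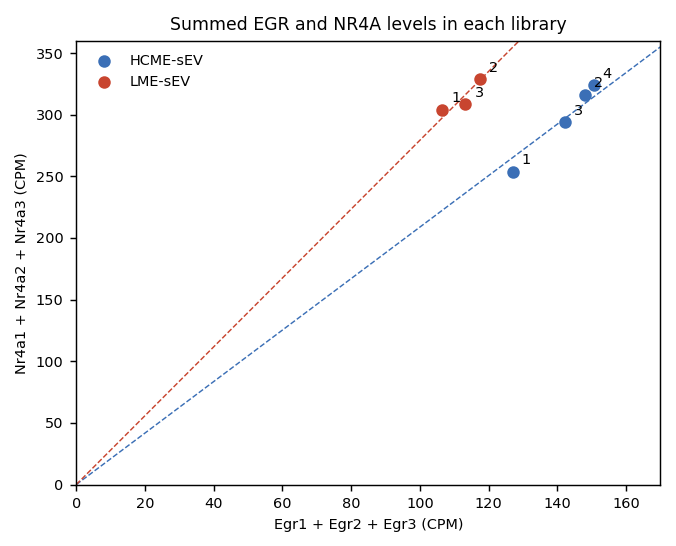
Summed CPM of the 3 NR4A genes against that of the 3 EGR genes in each library, numbered by replicate; the dashed lines have the slope of each group's mean ratio, 2.09 for HCME-sEVs and 2.79 for LME-sEVs. The LME-sEV libraries lie left of the HCME-sEV libraries, with NR4A sums that overlap theirs.

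*Nfatc1* (chromosome 18, 80606205 to 80713071, minus strand) encodes the NFAT factor that amplifies its own expression in activated T cells. It was at 101, 97.7, 103, and 106 CPM with HCME-sEVs and 101, 103, and 101 CPM with LME-sEVs. The groups lay on top of each other, with a log2 fold change of -0.0031 (SE 0.081, FDR = 0.989), and this was the narrowest comparison: the 95% interval of the fold ran from 0.888 to 1.12. Its sign changed in 11 of the 17 alternatives, with values between -0.024 and 0.041. The 6 coding transcripts of *Nfatc1* end at 2 places 41230 bp apart, which separate short from long forms, and the gene count pools them.

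*Rcan1* (chromosome 16, 92391953 to 92470867, minus strand), which encodes an inhibitor of calcineurin, was the least abundant of the 10 genes. It was at 14.4, 13.1, 12.2, and 9.51 CPM with HCME-sEVs and 16.9, 14.3, and 12.6 CPM with LME-sEVs, on 41 to 65 counts per library. The groups overlapped, and the log2 fold change of 0.23 (SE 0.18, 95% interval -0.14 to 0.60, FDR = 0.477) was the least precise. It was 0.12 when HCME-sEV library 4 was left out, and 0.13 when LME-sEV library 1 was. Its 5 coding transcripts start at places spread over 70790 bp but end within 557 bp, so reads from the 3′ end cannot tell the distal from the internal start printed above.

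*Dusp2* (chromosome 2, 127336159 to 127338376, plus strand), a nuclear phosphatase of ERK-family kinases, was at 135, 170, 143, and 179 CPM with HCME-sEVs and 156, 124, and 135 CPM with LME-sEVs. The groups overlapped widely. It averaged 157 ± 21.3 CPM (SD, n = 4) against 138 ± 16.6 CPM (SD, n = 3), and its log2 fold change of -0.19 (SE 0.10, 95% interval -0.40 to 0.027) did not pass (FDR = 0.295), and it lay between -0.28 and -0.11 with a library left out at a time. The estimate was about that of *Egr2*, and both intervals took in 0 as well as the estimate for *Egr3*.

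Since the reads come from the 3′ end and each molecule counts once, levels can be ordered between genes without a correction for length. With HCME-sEVs the order ran from *Dusp2* (157 CPM) over *Nr4a2* (136), *Nr4a3* (115), *Nfatc1* (102), *Egr3* (70.5), *Cd69* (65.2), *Egr1* (49.7), *Nr4a1* (46.1), and *Egr2* (21.8) to *Rcan1* (12.3 CPM). Neighbours from *Dusp2* to *Nfatc1*, *Egr3* and *Cd69*, and *Egr1* and *Nr4a1* differed by less than the sum of their SDs. With LME-sEVs *Nr4a2* (153 CPM) stood before *Dusp2* (138 CPM), again within their SDs. *Cd69* (36.9 CPM) came after *Nr4a1* (44.1 CPM) and *Egr1* (38.0 CPM), and it differed from *Egr1* by less than their SDs. The 10 genes summed to 776 ± 54.9 CPM (SD, n = 4) and 718 ± 7.74 CPM (SD, n = 3).

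Libraries differed in ways that ran across several genes. HCME-sEV library 1 was the lowest of its group for 6 of the 10 genes (*Egr1*, *Egr3*, the 3 NR4A genes, and *Dusp2*) and the highest for *Cd69* and *Rcan1*. HCME-sEV library 4 was the reverse, highest for 5 genes (*Egr3*, *Nr4a2*, *Nr4a3*, *Nfatc1*, and *Dusp2*) and lowest for *Egr2*, *Cd69*, and *Rcan1*. *Cd69* was thus highest in the HCME-sEV library where most of the others were lowest. Among LME-sEV libraries, library 1 was lowest for 6 genes, the 3 EGR genes and *Cd69* among them, and library 2 was highest for 6.

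**Figure D4:**
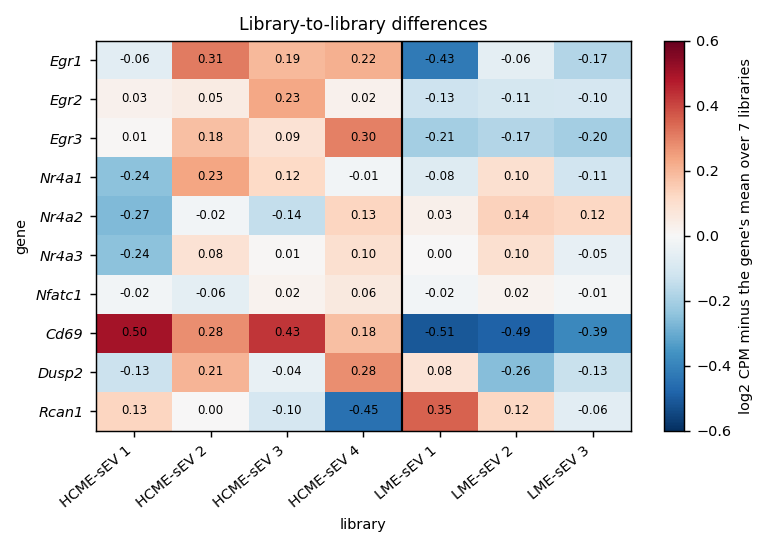
Log2 CPM of each gene in each library minus the mean of that gene over the 7 libraries; the black line parts the 4 HCME-sEV from the 3 LME-sEV libraries. *Cd69*, *Egr2*, and *Egr3* are above their mean in all 4 HCME-sEV libraries and below it in all 3 LME-sEV libraries, and *Nfatc1* is close to 0 throughout.

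Among 9685 other genes that averaged 20 counts or more, the 3 whose centred profile over the 7 libraries was most like that of *Cd69* were *Crabp2*, *Zfand2a*, and *Ttc27*. Their root-mean-square differences from it were 0.0826, 0.0831, and 0.101 on the log2 scale. *Crabp2*, a carrier of retinoic acid, was at 10.1 ± 1.43 CPM (SD, n = 4) and 5.37 ± 0.226 CPM (SD, n = 3), with a log2 fold change of -0.91. *Zfand2a*, a stress-induced zinc finger gene, had a log2 fold change of -0.83. For *Ttc27* the log2 fold change was -0.65. Likeness to *Cd69* fixes the direction of these differences, which are therefore given with no test. The other 9 early genes were left out of the candidates, so their likeness to *Cd69* was not compared.

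The other genes of the pathway were read from 4 hand-written lists, given by counts beside the background of 8.96%. Of 40 further genes induced early after receptor engagement, 37 were tested, 9 fell, 1 rose, and 27 did not pass (27.0% called, median log2 fold change -0.12). *Atf3*, a stress-responsive bZIP factor, fell from 17.8 ± 1.14 (SD, n = 4) to 8.74 ± 2.35 CPM (SD, n = 3), a log2 fold change of -0.997 (FDR = 0.00174). *Nfil3*, another bZIP factor, fell by 0.86 on the log2 scale (FDR = 0.00128). The kinase gene *Pim3* fell by 0.59 (FDR = 7.08e-04), and *Ccl4*, a chemokine secreted by activated CD8+ T cells, fell by 0.46 (FDR = 0.00113).

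*Btg2*, an antiproliferative gene, was the gene of this list that rose, from 77.2 ± 10.3 (SD, n = 4) to 116 ± 9.32 CPM (SD, n = 3), by 0.59 on the log2 scale (FDR = 0.00104). The other genes that fell were *Irf4*, *Csrnp1*, *Fosl1*, *Tnf*, and *Pim1*. Of this list *Fosl1* had the largest fall, from 5.85 ± 1.93 (SD, n = 4) to 2.01 ± 0.837 CPM (SD, n = 3). Its log2 fold change was -1.58 (FDR = 0.00928), so that *Fosl1* was a DEG. Without LME-sEV library 2 the list had 6 calls, and 3.09% of all genes passed. *Fosb*, *Egr4*, and *Cd40lg* were below the minimum on counts.

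Of 20 EGR corepressors and genes linked to EGR2, EGR3, NFAT, or NR4A in T-cell tolerance, 19 were tested, 4 rose, 2 fell, and 13 did not pass (31.6% called, median 0.10). The inhibitory receptor gene *Pdcd1* rose from 37.0 ± 2.27 (SD, n = 4) to 58.9 ± 10.8 CPM (SD, n = 3), by 0.68 on the log2 scale (FDR = 0.00128). *Cblb*, an E3 ligase that dampens receptor signals, rose from 166 ± 17.4 to 243 ± 14.8 CPM, by 0.55 (FDR = 6.07e-04). *Tox*, a nuclear factor of exhausted T cells, rose by 0.59 (FDR = 0.0122), and *Dgka*, a diacylglycerol kinase, by 0.33 (FDR = 0.0417).

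*Fasl*, the death ligand gene, fell by 0.54 (FDR = 0.0119), and *Crtam*, a gene of activated CD8+ T cells, by 0.35 (FDR = 0.0282). The list thus moved in both directions. It had 2 calls without LME-sEV library 2 and 3 without LME-sEV library 3, fits in which 3.09% and 3.66% of all genes passed. *Tox* shares exon positions with an annotated gene on the opposite strand, and since the strand setting of the counting is not given, its level is uncertain.

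In the calcium, calcineurin, and NFAT list 28 of 30 genes were tested, 4 rose, 1 fell, and 23 did not pass (17.9% called, median 0.094). *Itpr1*, a channel that releases calcium from the endoplasmic reticulum, rose from 53.0 ± 2.71 (SD, n = 4) to 79.8 ± 3.05 CPM (SD, n = 3), by 0.59 on the log2 scale (FDR = 4.74e-04). The related *Itpr2* rose by 0.44 (FDR = 0.0233), the calcineurin catalytic subunit gene *Ppp3ca* by 0.31 (FDR = 0.0235), and the phospholipase gene *Plcg1* by 0.30 (FDR = 0.0408).

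*Itpr1* and *Plcg1* overlap exons of genes on the other strand and are uncertain in the same way. The list had 1 call without LME-sEV library 2 or 3, 2 without HCME-sEV library 2, and 3 without HCME-sEV library 1 or LME-sEV library 1. Calls over all genes were also fewer in these fits, at 3.09%, 3.66%, 5.70%, 7.60%, and 6.70% in the order LME-sEV library 2 and 3, HCME-sEV library 2 and 1, and LME-sEV library 1 left out.

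In the Ras and ERK list, with SRF and its partners, 34 of 35 genes were tested, and *Hras*, a Ras GTPase gene, was the gene that passed (2.94% called, median -0.010). It fell from 44.1 ± 1.01 (SD, n = 4) to 29.2 ± 1.15 CPM (SD, n = 3), by 0.60 on the log2 scale (FDR = 0.00148). The list had 4 calls without HCME-sEV library 3, 3 without LME-sEV library 1, 2 without HCME-sEV library 4, and 6 under scaling by library size only, where 10.3%, 6.70%, 7.26%, and 8.53% of all genes passed.

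**Figure D5:**
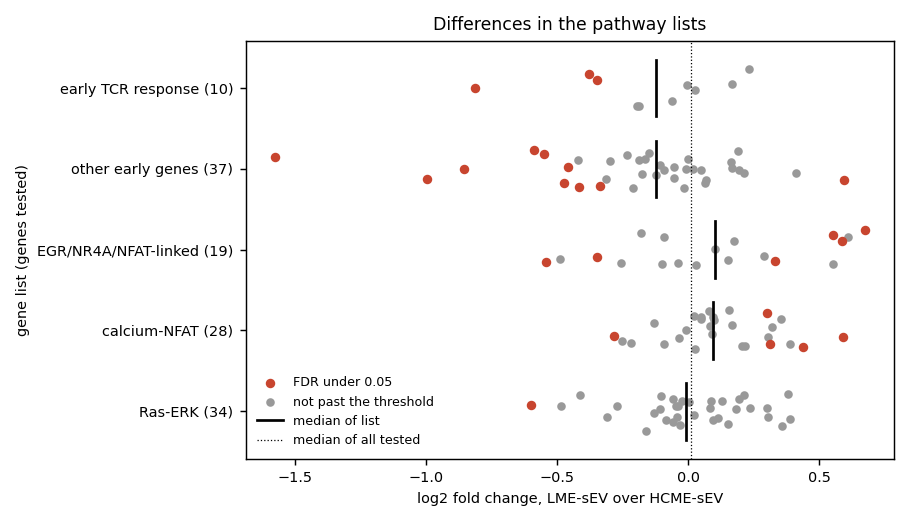
Log2 fold change of each tested gene in the 5 lists, LME-sEVs over HCME-sEVs, with the number tested in brackets; red points passed an FDR under 0.05, black bars are list medians, and the dotted line is the median of all tested genes, 0.0096. The red points of the early genes lie mostly left of 0, whereas those of the calcium and NFAT list lie mostly right of it.

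Library totals ran from 3689831 to 5030522 counts, so that 3 counts stood for 0.580 to 0.804 CPM, and TMM factors from 0.966 to 1.03. Of the 1131 genes past the test, 41.8% were higher with LME-sEVs, whereas of the 1077 past it under scaling by library size only 56.8% were higher; that scaling shifted the median of all genes by 0.045 on the log2 scale. Of the defining markers, *Cd8a* lay at 340 to 375 CPM with HCME-sEVs and 399 to 433 CPM with LME-sEVs, while *Cd4*, *Foxp3*, *Cd79a*, *Adgre1*, *Cd14*, and *Ncr1* held at most 3 counts in any library, although other B-cell and myeloid markers reached more, *Ebf1* up to 23 and *Fcer1g* up to 28 counts. The summed markers of T and CD8+ T cells were at 5034 to 5173 CPM with HCME-sEVs and 5221 to 5819 CPM with LME-sEVs (9 of 11 higher with LME-sEVs), and myeloid markers at 6.57 to 9.12 and 11.8 to 14.1 CPM (7 of 9 higher), in neither case overlapping. CD4 and Treg markers were at 5.52 to 13.4 and 14.3 to 16.4 CPM, also without overlap and nearly all of it *Zbtb7b*. *Zbtb7b* was the 1 tested gene of this list, and it passed as higher with LME-sEVs (log2 fold change 0.87). Of the T-cell and CD8 markers, 2 of 11 passed as higher and 0 as lower, and 0 of 2 tested myeloid markers passed. Summed basophil and mast-cell markers were at 5.52 to 31.6 and 21.1 to 39.2 CPM, and 2 of the 5 tested rose: *Prg2*, a granule protein gene, was at 0 to 0.532 CPM with HCME-sEVs and 4.06 to 9.18 CPM with LME-sEVs (FDR = 1.65e-04), and *Mcpt8* also passed (FDR = 0.0341). Summed erythroid and platelet markers were at 71.6 to 175 and 150 to 196 CPM, and 3 of the 6 tested rose, the platelet genes *Pf4* (FDR = 0.0331) and *Ppbp* (FDR = 0.0188) and the globin gene *Hba-a1* (FDR = 0.0486). B-cell markers summed to 9.98 to 10.9 and 9.66 to 11.2 CPM and NK-cell markers to 491 to 539 and 462 to 541 CPM, with 0 of 3 and 0 of 2 tested genes past the test. Nearly all of the NK-cell sum was *Eomes* and *Nkg7*, its 2 tested genes. *Klrb1c* reached at most 8 counts in a library and *Klra8* at most 1. The part of all these cell type markers in the lower *Cd69*, *Egr1*, and *Egr3* levels was not tested.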

How the data were processed

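Libraries were made with the QuantSeq 3′ kit (FWD) with unique molecular identifiers (UMI). Per the labels and methods, the authors trimmed reads (cutadapt 2.10), mapped them to GRCm38 (STAR 2.5.3a), collapsed copies by UMI (UMI-tools 1.0.0), and assigned them to genes (featureCounts, Subread 2.0.0); the annotation release and strand setting are not given in the sources used here. The deposited values are whole counts per gene symbol, without normalization or filter. Precision was limited by 3689831 to 5030522 counts per library. Replicates differed by more than sampling noise (chi-square per degree of freedom 2.10 to 6.00).

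Genes averaging 5 or more counts were kept. TMM normalization was followed by the quasi-likelihood test of edgeR 4.0.16 in R 4.3.3, without covariates, with Benjamini-Hochberg adjustment over 12623 genes, and a DEG had an FDR under 0.05 and a log2 fold change beyond 1. The SE is the log2 fold change divided by the square root of F. For single genes, group labels were also permuted exactly (35 assignments, two-sided). Log2 CPM used a prior count of 2. The steps were tested on simulated data. Alternatives were other minimums on counts, other normalizations, DESeq2 1.42.0, limma-voom (limma 3.58.1), the replicate number as a block, and leaving out each library. Positions are from GENCODE vM21; no named gene had a near-identical 3′ end (blast 2.17.0, last 300 bases, 95% identity over 200 bases).

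The 10 genes and all lists were chosen with earlier results of these data known. Named were the 10 genes, in each of 4 pathway lists the genes past the FDR, up to the 5 with the smallest, and the 3 genes most like the early gene with the largest change; *Irf4*, *Csrnp1*, *Fosl1*, *Tnf*, *Pim1*, and *Dgka* were added after their values were seen, to complete their counts. A gene that the rule names is not reported here.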

Additional observations from a re-analysis of the deposited data

Results flagged for a closer look

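*Egr2* was the 1 of 12 measures (the levels of the 10 genes and the summed EGR and NR4A levels) examined over the 4 HCME-sEV libraries in which a library stood apart from its group. At 24.2 CPM, HCME-sEV library 3 lay above the others, which were between 20.9 and 21.2 CPM, and the gap was 0.899 of the range of the group. Chance sets apart about 5% of such groups, and the cause was not tested. The 3 LME-sEV libraries were too few for this comparison.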

How the results depend on the processing

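*Cd69* passed in all 17 alternatives, *Egr3* in 10, and *Egr1* in 4, and in none did any of the 10 genes rise or become a DEG. *Egr1* lost its call at log2 fold changes of -0.37 (at least 5 counts in total, at least 5 in 3 libraries, and filterByExpr), -0.36 (upper quartile), -0.33 (library size only), and -0.38 (DESeq2 and limma-voom). Scaling by library size only, where 8.53% of all genes passed, left 1 of the 10 genes called, with *Egr3* at -0.30. *Nfatc1* changed sign to 0.0074 (5 counts in total), 0.00088 (5 in 3 libraries), 0.0037 (filterByExpr), 0.0049 (no minimum), 0.018 (upper quartile), and 0.041 (library size only). The Ras and ERK list had 3 calls (5 counts in total and no minimum), 2 (filterByExpr), 5 (upper quartile), and 6 (library size only). In that order of settings, 5.89%, 4.43%, 9.87%, 8.44%, and 8.53% of all genes passed.

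Whether the replicate numbers pair the libraries cannot be settled from 3 weak correlations. Same-numbered libraries correlated at 0.0267 to 0.155, over 0.1 in 1 of 3 pairs. LME-sEV libraries 1 and 3 did not correlate best with their own number. With the number as a block, 1454 genes passed against 1131 without it, *Egr3* was at -0.29 (FDR = 0.0531), *Nfatc1* at 0.017, and the calcium and NFAT and the Ras and ERK lists had 8 and 4 calls.

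Leaving out a library at a time left 1 to 3 of the 10 genes called. Log2 fold changes ran from -0.46 to -0.28 for *Egr1*, -0.39 to -0.29 for *Egr3*, -0.15 to 0.012 for *Nr4a1*, -0.046 to 0.064 for *Nr4a3*, and -0.024 to 0.017 for *Nfatc1*, and for genes without a call from 0.10 to 0.24 for *Nr4a2*, -0.28 to -0.11 for *Dusp2*, 0.12 to 0.34 for *Rcan1*, and -0.22 to -0.14 for *Egr2*. Calls ran from 1 to 6 in the calcium and NFAT list, 1 to 4 in the Ras and ERK list, 6 to 13 in the list of other early genes, and 2 to 6 in the tolerance list, while 3.09% to 10.3% of all genes passed in these fits. Fewer libraries enter these fits, and the cause of the other changes was not tested.

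Groups of 3 and 4 libraries and levels of 41 to 99 counts for *Rcan1* and *Egr2* leave wide intervals. The intervals come from the edgeR fit and cover the spread between these libraries. The count at 48 h does not show the hours in which these genes are first induced.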
